A study of Mus musculus with 24 samples.

Results

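The contractile and fusion gene set comprised 48 mouse genes, chosen by name with earlier results of these data known. The genes encode the sarcomere, the calcium handling machinery of contraction and the membrane proteins of myoblast fusion. They were followed across all 24 RNA-seq libraries of a count table of 55291 gene symbols. The cells were C2C12 myoblasts, an immortal mouse muscle line, stably transduced with an shRNA and selected as populations. The 4 lines carried a scrambled control shRNA (scr) or an shRNA against Baf180 (gene Pbrm1), Baf250a (gene Arid1a) or Brd9 (Baf180KD, Baf250aKD and Brd9KD), so that the control also carried a vector and had been through selection. Proliferating cells of each line received no added metal (NT), 100 µM CuSO4 (Cu) or 50 µM ZnSO4 (Zn) for 48 h. Each of the 12 conditions had 2 biological replicates. GEO's labels call the cells primary myoblasts and the knockdowns Lipofectamine-mediated, whereas the study's methods name C2C12 and stable transduction. The study lists 2 shRNAs per target, and which of them the sequenced libraries carried is not given. Libraries are labelled by target alone, so effects of the target, the shRNA and the individual cell line cannot be told apart.

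In striated muscle, thick filaments of myosin heavy and light chains pull on thin filaments of actin, tropomyosin and troponin. Titin and nebulin span the sarcomere, alpha-actinin anchors thin filaments at the Z-disc, and the M-band crosslinks thick filaments at the centre. Depolarisation opens ryanodine receptors in the sarcoplasmic reticulum, and the released calcium binds troponin C. Myoblasts begin to express most of these genes when they leave the cell cycle and fuse, a step that needs Myomaker (Mymk) and Myomixer (Mymx). Baf180, Baf250a and Brd9 are subunits that distinguish the 3 forms of the SWI/SNF chromatin remodelling complex, PBAF, canonical BAF and non-canonical BAF.

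Total counts per library ranged from 495778 to 75179394, with a median of 22158430. The lowest total belonged to Baf250aKD Zn replicate 2, and the next lowest was 12719173. Levels are given in CPM, counts scaled to library size with TMM factors, and a count of 3 in a library, taken here as the floor of detection, was worth 5.83 CPM in that shallow library and 0.221 CPM or less in the others. The targeted transcripts did not overlap between lines over the 3 treatments. In untreated cells alone, log2 fold changes from scr were -0.757 ± 0.157 (SE) for Pbrm1 in Baf180KD, -1.53 ± 0.10 for Arid1a in Baf250aKD and -0.757 ± 0.135 for Brd9 in Brd9KD. Pbrm1 spanned 99.9 to 227 CPM in the 6 scr libraries and 42.2 to 75.7 CPM in Baf180KD, Arid1a spanned 266 to 308 and 92.0 to 144 CPM in scr and Baf250aKD, and Brd9 spanned 27.2 to 32.4 and 13.8 to 17.9 CPM in scr and Brd9KD. Myoblast markers were expressed in every line, including Myod1 at 110.4 and 115 CPM in untreated scr.

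The levels of the genes in myoblasts covered several orders of magnitude. Compared per length, as mean FPKM over the 6 scr libraries, the intermediate filament gene Des led with 542 FPKM, followed by the tropomyosins Tpm2 with 123 and Tpm1 with 115 FPKM. Next came the fast-fibre alpha-actinin Actn3 with 109, the Z-disc gene Synpo2l with 44.7, Tpm3 with 42.5, skeletal actin Acta1 with 37.4 and titin (Ttn) with 33.3 FPKM. Cardiac actin Actc1 had 13.1 and the fast regulatory light chain Mylpf 10.8 FPKM. The tropomyosin genes, which also make cytoskeletal isoforms, and Des were thus among the abundant transcripts of the set in these proliferating cells, while nebulin (Neb), at 0.153 FPKM, and embryonic myosin heavy chain Myh3, at 0.840 FPKM, were low. Counts per gene do not separate isoforms.

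**Figure D1:**
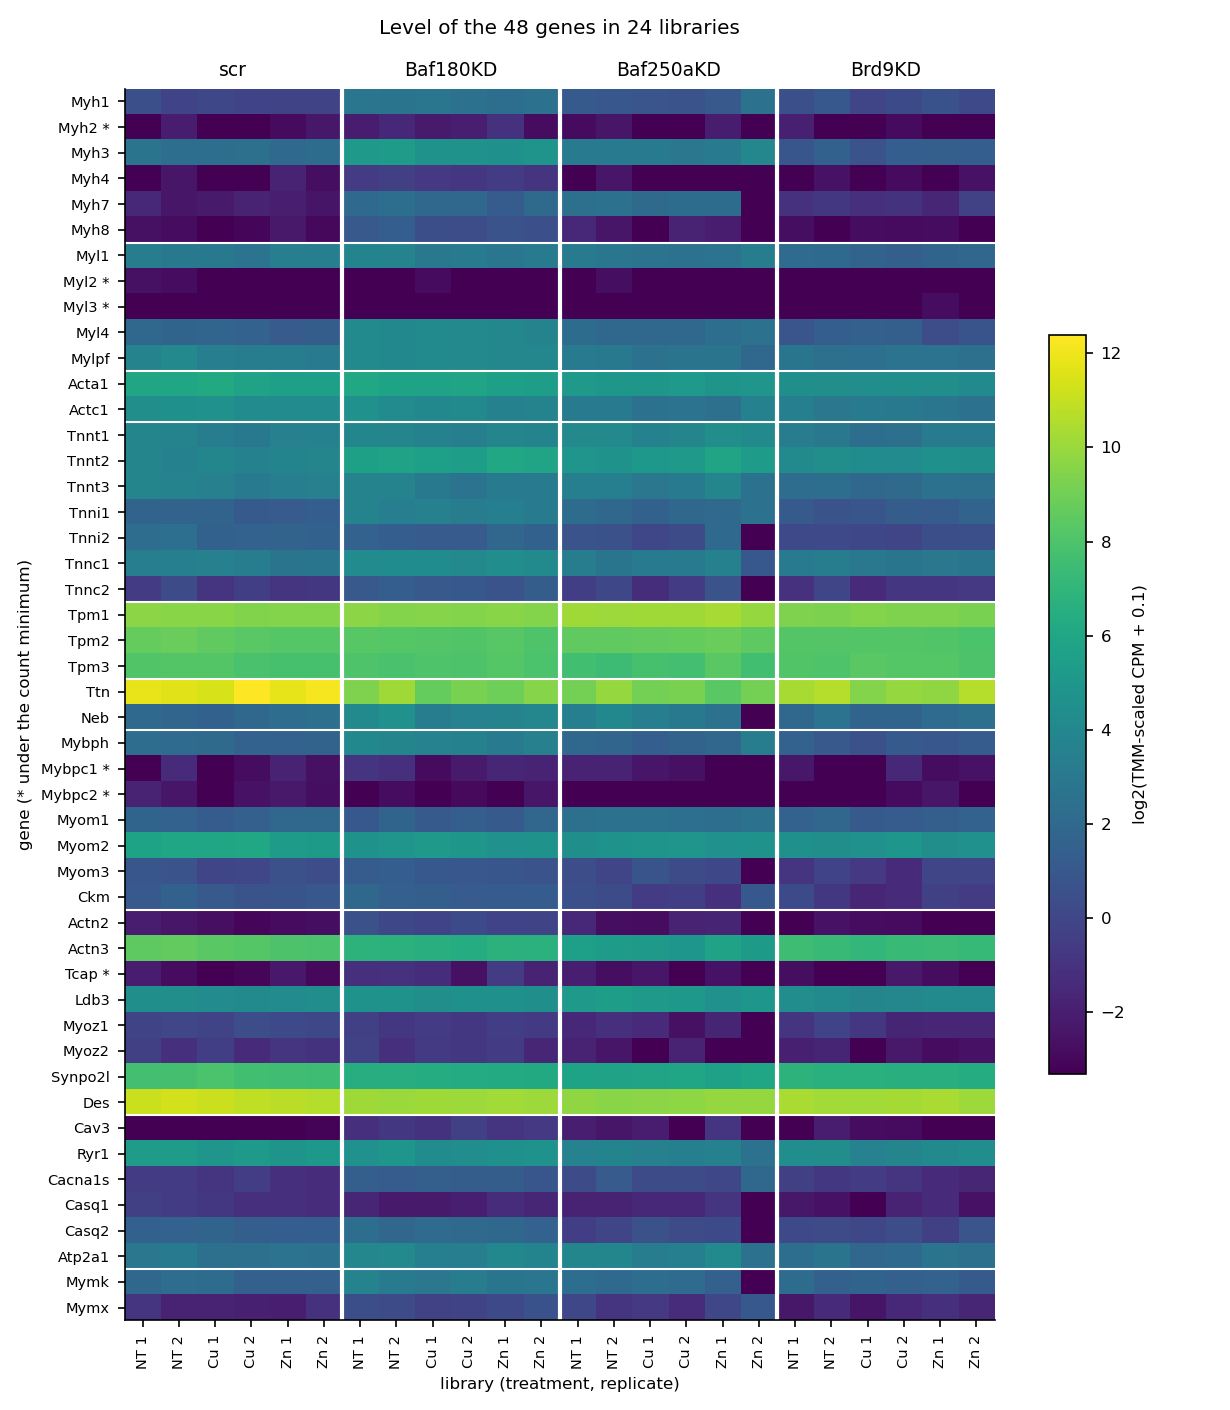
Levels of the 48 genes (rows, grouped by role and separated by white lines) in the 24 libraries (columns, by line, treatment and replicate), as log2 of TMM-scaled CPM with 0.1 added. Tropomyosins, Ttn, Actn3, Synpo2l and Des form the bright rows, Ttn and Des are brightest in the 6 scr libraries, and the 6 genes marked with an asterisk did not reach the count minimum.

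Of the 48 genes, 42 passed the low-count filter over the 24 libraries, which 16524 genes passed in all. The 6 that did not were the adult fast heavy chain Myh2, the ventricular and slow light chains Myl2 and Myl3, the slow and fast myosin binding proteins Mybpc1 and Mybpc2, and telethonin (Tcap), a Z-disc cap of titin. Myl3 had a single count in all 24 libraries, and Myl2 had 4 counts. The most counts of these genes in any library were 10 for Mybpc1 and 9 for Tcap. A further 4 genes passed the filter but stayed under 1 CPM in all 24 libraries: the adult fast heavy chain Myh4, the calcineurin-binding Z-disc protein Myoz2, caveolin 3 (Cav3) and the fast calsequestrin Casq1. These 10 genes were too low in these cells for a level to be given with useful precision.

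Cav3, the muscle caveolin, had 1 count in total over the 6 scr libraries and 0.359 to 0.7004 CPM in the 6 Baf180KD libraries. In scr, 18 genes averaged under 1 CPM, 14 between 1 and 10, 9 between 10 and 100, and 7 at or above 100 CPM. In Baf180KD the number under 1 CPM was 12, in Baf250aKD 17 and in Brd9KD 19. The 6 genes that were under 1 CPM in scr and at or above it in Baf180KD were the heavy chains Myh1, Myh7 and Myh8, the fast troponin C Tnnc2, the calcium channel subunit Cacna1s and Mymx.

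Without added metal, the 3 knockdown lines differed from scr in most of the tested genes, and in different ways. In Baf180KD, 27 of 41 tested genes passed an adjusted p under 0.05 in edgeR's quasi-likelihood test, 18 higher and 9 lower, where 41.0% of all 14851 tested genes passed, 21.7% higher and 19.3% lower. In Baf250aKD, 24 of 36 passed, 9 higher and 15 lower, against 57.8% of all genes, 28.9% higher and 28.9% lower. The share of members there, 66.7%, was near that of all genes, so this count is not read as a trait of the set. In Brd9KD, 21 of 33 passed, 1 higher and 20 lower, against 29.2% of all genes, 15.1% higher and 14.1% lower. The median log2 fold change of the tested members was 0.37 in Baf180KD, -0.31 in Baf250aKD and -0.84 in Brd9KD, beside 0.03, 0.00 and 0.01 over all tested genes. These 3 comparisons share the same 2 scr libraries.

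Some of these calls follow from the filter. In Baf180KD, 5 of the 18 higher genes (Myh4, Myh7, Myh8, Actn2 and Mymx) reached the count minimum through the knockdown libraries alone, as Myh7 did in Baf250aKD, so that they could enter the test only by being higher. Conversely Casq1 in Baf180KD, Casq1 and Myoz1 in Baf250aKD, and Myom3, Ckm and Myoz1 in Brd9KD, of which Myoz1 was not called, reached it through scr alone. Without Brd9KD NT replicate 2 the count in Brd9KD dropped from 21 to 12 genes. In bulk RNA, fewer expressing cells and less RNA per expressing cell cannot be told apart, for these and all following values.

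**Figure D2:**
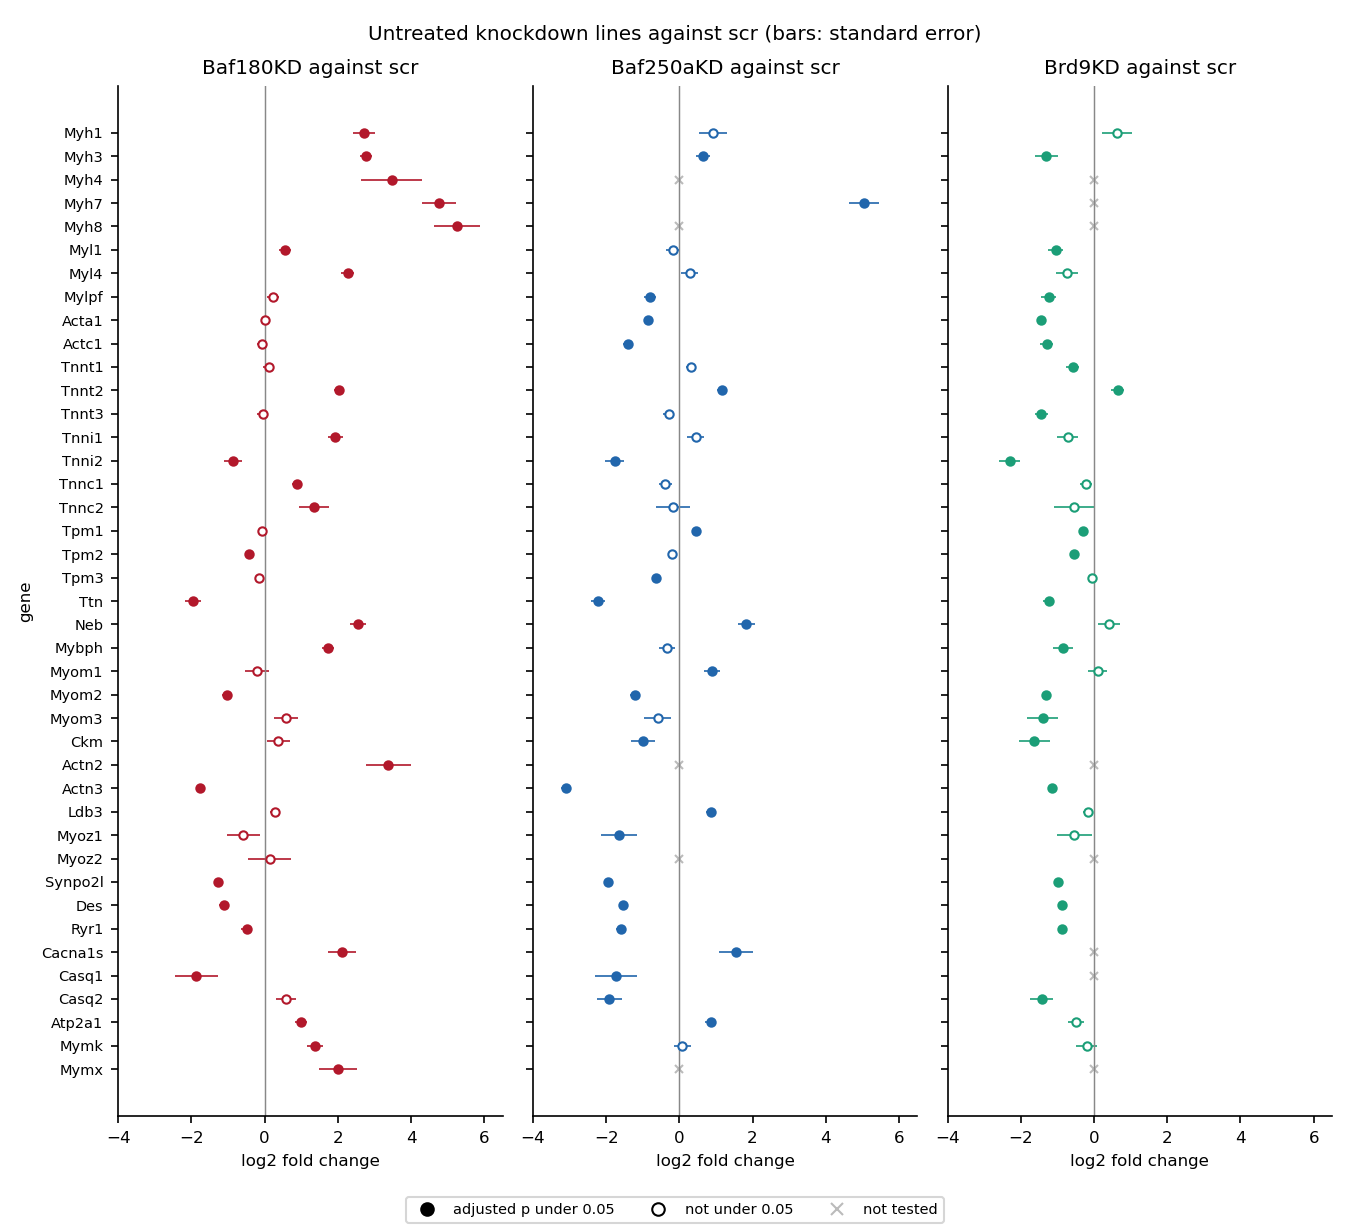
Log2 fold change of each tested gene (rows) between an untreated knockdown line and untreated scr, 2 libraries against 2, with the standard error of the edgeR fit as a bar. Filled points passed an adjusted p under 0.05 and grey crosses at 0 were not tested. The Baf180KD panel has 18 filled points to the right, the Brd9KD panel 1, and Ttn, Actn3, Synpo2l, Des, Myom2, Ryr1 and Tnni2 are filled on the left in all 3 panels.

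The 3 comparisons share the untreated scr libraries, and Myh2, Myl2, Myl3, Mybpc1, Mybpc2, Tcap and Cav3 were tested in none of them. Of the 33 genes tested in all 3 comparisons, 7 were lower in every line. They were Ttn, Actn3, Synpo2l, Des, the M-band protein Myom2, the ryanodine receptor Ryr1 and the fast troponin I Tnni2. How many of all genes were lower in all 3 was not counted, so these 7 have no background share. Tnnt2, the cardiac and embryonic troponin T, was higher in all 3, and Myh3 passed in all 3 with a change of sign. Myl1, Tpm1 and Mybph also passed in opposite directions in different lines.

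Titin, the molecular spring that links Z-disc and M-band, stood at 3746 and 3234 CPM in untreated scr, 655 and 1117 in Baf180KD, 562 and 939 in Baf250aKD and 1293 and 1616 in Brd9KD. Every knockdown value lay below both scr values. Its log2 fold changes were -1.95 ± 0.22 (SE, adjusted p = 3.3e-05), -2.22 ± 0.19 (adjusted p = 6.57e-07) and -1.24 ± 0.14 (adjusted p = 0.000833) in the same order. Ttn (GRCm38 chr2:76703980-76982547, minus strand) has 116825 bases of annotated exons, the longest of the set, and its level in the 2 scr Cu libraries was 2825 and 5371 CPM.

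Actn3, which crosslinks actin at the Z-disc of fast fibres, measured 365 and 399 CPM in untreated scr, 113 and 109 in Baf180KD, 46.9 and 41.9 in Baf250aKD and 184 and 159 in Brd9KD. The groups did not overlap, and Baf250aKD held the lowest level. Its log2 fold change was -1.76 ± 0.11, adjusted p = 2.35e-07 in Baf180KD, -3.10 ± 0.11, adjusted p = 2.58e-10 in Baf250aKD and -1.14 ± 0.10, adjusted p = 0.000242 in Brd9KD. Synpo2l, an actin-associated protein of the Z-disc, gave 210.1 and 219 CPM in untreated scr, 87.3 and 87.1 in Baf180KD, 56.5 and 54.0 in Baf250aKD and 114 and 98.9 in Brd9KD. The log2 fold change was -1.28 ± 0.10, adjusted p = 2.25e-06 in Baf180KD, -1.96 ± 0.10, adjusted p = 8.2e-09 in Baf250aKD and -0.996 ± 0.10, adjusted p = 0.000417 in Brd9KD. Both Z-disc genes were thus lower in each line, with no untreated library overlapping scr.

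Desmin, the intermediate filament that ties Z-discs to each other and a marker of myoblasts, was at 2221 and 2519 CPM in untreated scr, 1139 and 1032 in Baf180KD, 870.2 and 777 in Baf250aKD and 1355 and 1208 in Brd9KD. Its log2 fold changes were -1.11 ± 0.12, adjusted p = 2.76e-05 in Baf180KD, -1.52 ± 0.11, adjusted p = 1.15e-07 in Baf250aKD and -0.87 ± 0.10, adjusted p = 0.00096 in Brd9KD. Myom2 gave 54.2 and 59.0 CPM in untreated scr, 25.99 and 28.7 in Baf180KD, 22.7 and 26.03 in Baf250aKD and 23.4 and 22.0 in Brd9KD, with log2 fold changes of -1.03 in Baf180KD, -1.22 in Baf250aKD and -1.30 in Brd9KD. The 3 knockdown lines lay within a narrow band for this gene, below both scr values. Ryr1, the calcium release channel, gave 39.0 and 40.1 CPM in untreated scr, 24.6 and 30.8 in Baf180KD, 12.6 and 13.7 in Baf250aKD and 20.7 and 21.9 in Brd9KD. The log2 fold change was -1.59 ± 0.12, adjusted p = 2.69e-07 in Baf250aKD, -0.88 ± 0.12, adjusted p = 0.00174 in Brd9KD and -0.49 ± 0.14, adjusted p = 0.0148 in Baf180KD, the last no longer called without Baf180KD NT replicate 1.

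Tnni2, the inhibitory troponin subunit of fast fibres, measured 4.78 and 5.29 CPM in untreated scr, 2.96 and 2.51 in Baf180KD, 1.55 and 1.41 in Baf250aKD and 1.00 and 1.01 in Brd9KD. Log2 fold changes were -0.87 in Baf180KD, -1.76 in Baf250aKD and -2.30 in Brd9KD. The smallest of them, in Baf180KD (adjusted p = 0.0152), was lost without Baf180KD NT replicate 2 or scr NT replicate 2. The sum of the 48 genes, to which Ttn and Des gave the most counts in scr, ran from 7261 to 9281 CPM in the scr libraries and from 3401 to 4441 CPM in the 18 knockdown libraries.

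**Figure D3:**
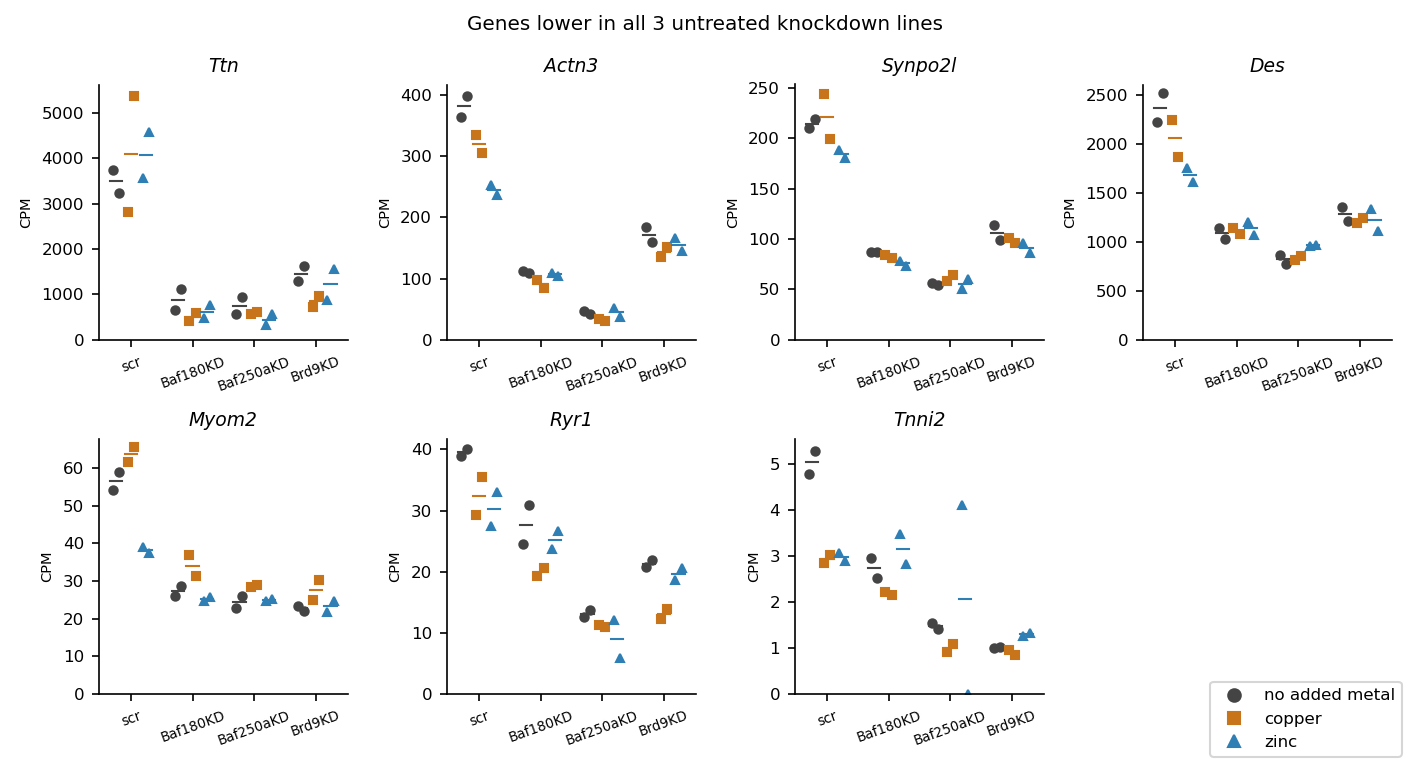
TMM-scaled CPM of the 7 genes that were lower than scr in all 3 untreated knockdown lines, by line on the horizontal axis and by treatment in colour and shape. Points are single libraries, short lines are means of 2 libraries, and each vertical axis starts at 0. All knockdown points lie below all scr points for Ttn, Actn3, Synpo2l, Des and Myom2, and the Tnni2 point at 0 is the shallow Baf250aKD Zn replicate 2.

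Promoter windows of these genes are shown because the genes moved together or in opposite directions, 250 bases before to 50 after the RefSeq start on the gene's own strand (GRCm38.p6). RefSeq windows matched 39 of the 48 genes, with 46 windows in all. Capitals mark matches, on either strand, of the E-box CANNTG, the core bound by MyoD-family factors, and of the MEF2 motif, the AT-rich element of MEF2 factors. The first 4 are from genes lower in all 3 lines.
Ttn (chr2:76982498-76982797, minus strand): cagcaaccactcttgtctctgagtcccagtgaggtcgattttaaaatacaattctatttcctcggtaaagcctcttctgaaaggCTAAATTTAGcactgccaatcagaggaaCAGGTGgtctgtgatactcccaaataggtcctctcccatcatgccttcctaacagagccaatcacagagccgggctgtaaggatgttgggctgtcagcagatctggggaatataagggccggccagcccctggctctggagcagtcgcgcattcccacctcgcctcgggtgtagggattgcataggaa
Synpo2l (chr14:20664525-20664824, minus strand): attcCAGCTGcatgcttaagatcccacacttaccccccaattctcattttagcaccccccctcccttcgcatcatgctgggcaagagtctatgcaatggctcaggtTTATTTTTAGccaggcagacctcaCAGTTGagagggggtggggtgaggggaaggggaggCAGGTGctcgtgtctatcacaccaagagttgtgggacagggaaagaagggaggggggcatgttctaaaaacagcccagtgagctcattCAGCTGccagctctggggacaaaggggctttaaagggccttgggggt
Des (chr1:75360042-75360341, plus strand): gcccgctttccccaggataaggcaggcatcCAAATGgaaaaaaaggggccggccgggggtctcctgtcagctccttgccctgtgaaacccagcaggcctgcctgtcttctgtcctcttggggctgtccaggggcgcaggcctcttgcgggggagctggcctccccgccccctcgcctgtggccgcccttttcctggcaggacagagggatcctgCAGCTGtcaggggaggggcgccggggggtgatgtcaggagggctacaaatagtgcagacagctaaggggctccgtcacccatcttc
Ryr1 (chr7:29125102-29125401, minus strand): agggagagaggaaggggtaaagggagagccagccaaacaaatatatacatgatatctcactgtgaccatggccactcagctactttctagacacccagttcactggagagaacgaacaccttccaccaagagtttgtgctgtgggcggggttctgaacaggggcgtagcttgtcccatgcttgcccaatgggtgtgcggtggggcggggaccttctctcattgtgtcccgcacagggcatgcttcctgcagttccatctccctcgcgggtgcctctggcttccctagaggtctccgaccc
Tnnt2 was higher in all 3 lines, and the last 3 genes were called in opposite directions.
Tnnt2 (chr1:135836084-135836383, plus strand): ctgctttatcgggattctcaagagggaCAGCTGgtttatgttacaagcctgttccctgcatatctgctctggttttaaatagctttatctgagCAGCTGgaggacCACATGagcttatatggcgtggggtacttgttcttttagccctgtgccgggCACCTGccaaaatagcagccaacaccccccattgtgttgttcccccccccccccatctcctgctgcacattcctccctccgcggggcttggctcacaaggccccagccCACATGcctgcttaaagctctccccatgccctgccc
Myh3 (chr11:67078050-67078349, plus strand): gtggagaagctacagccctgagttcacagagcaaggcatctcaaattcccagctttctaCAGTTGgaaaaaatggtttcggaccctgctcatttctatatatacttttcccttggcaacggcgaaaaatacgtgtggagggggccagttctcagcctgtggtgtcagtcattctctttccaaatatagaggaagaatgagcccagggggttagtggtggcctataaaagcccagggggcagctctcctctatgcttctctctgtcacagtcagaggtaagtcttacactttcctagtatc
Myl1 (chr1:66945007-66945306, minus strand): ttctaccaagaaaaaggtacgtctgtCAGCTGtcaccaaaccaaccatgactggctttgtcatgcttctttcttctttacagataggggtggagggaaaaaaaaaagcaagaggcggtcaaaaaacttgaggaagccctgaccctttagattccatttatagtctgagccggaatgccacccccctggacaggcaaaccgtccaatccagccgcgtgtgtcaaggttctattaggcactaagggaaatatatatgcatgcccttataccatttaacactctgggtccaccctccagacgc
Mybph (chr1:134193198-134193497, plus strand): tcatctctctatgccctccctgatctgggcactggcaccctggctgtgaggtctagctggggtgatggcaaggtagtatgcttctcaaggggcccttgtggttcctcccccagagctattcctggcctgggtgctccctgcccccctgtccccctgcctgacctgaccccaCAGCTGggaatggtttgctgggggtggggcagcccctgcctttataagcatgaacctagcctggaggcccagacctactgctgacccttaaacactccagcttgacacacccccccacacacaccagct

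In these windows Ttn held 1 E-box and 1 MEF2 match, Synpo2l 4 and 1, Des 2 E-boxes and Ryr1 no match. Tnnt2 held 5 E-boxes and Myh3, Myl1 and Mybph 1 each. Further windows, not shown, held 2 E-boxes and 1 MEF2 match for Synpo2l (chr14:20668305-20668604) and 2 E-boxes for Tnnt2 (chr1:135836739-135837038). An E-box was in 72.3% of all 32851 RefSeq windows of this length and in 40 of the 46 windows of the set. An E-box variant, CAGCTG, which overlaps CANNTG, was in 16.3% of all windows and 21 of 46. The MEF2 motif was in 3.19% of all windows and in 9 of 46, from Ttn, Casq2, Myoz2, Myom3, Myh1, Myh4, Myh8 and Synpo2l. The CArG box, the element bound by serum response factor, was in 1.63% of all windows and in 7 of 46, from Actc1, Acta1, Myl3, Myh4, Ldb3 and Myom1. These are letter matches only, and those genes moved in several directions: MEF2 matches lay in the windows of Ttn, lower in all 3 lines, and of Myh1 and Myh8, higher in Baf180KD.

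Myosin heavy chains were higher in Baf180KD than in scr, and Myh7 also in Baf250aKD. Myh3, Myh2, Myh1, Myh4 and Myh8 lie in 1 cluster on chromosome 11 (GRCm38 chr11:67078300-67308634), and the slow and cardiac chain Myh7 lies on chromosome 14. Of those tested in Baf180KD, Myh1 and Myh3 reached the count minimum in both lines. Myh4, Myh7 and Myh8 entered the test through the Baf180KD libraries alone and could enter only by being higher. The same held for Myh7 in Baf250aKD. The embryonic chain Myh3 measured 6.56 and 4.97 CPM in untreated scr, 36.7 and 39.9 in Baf180KD, 9.13 and 8.66 in Baf250aKD and 1.74 and 2.90 in Brd9KD. Its Baf180KD values were the highest of the 4 lines and its Brd9KD values the lowest, with no overlap between lines. The log2 fold change was 2.76 ± 0.17, adjusted p = 2.39e-07 in Baf180KD, 0.64 ± 0.19, adjusted p = 0.0123 in Baf250aKD and -1.31 ± 0.31, adjusted p = 0.0177 in Brd9KD. The call in Baf250aKD was lost on leaving out either Baf250aKD NT library or scr NT replicate 2, and that in Brd9KD without Brd9KD NT replicate 1.

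Myh7 had 6 counts in the 2 untreated scr libraries together, 211 in Baf180KD, 262 in Baf250aKD and 14 in Brd9KD. After scaling, the ratio to scr was 28.1 (95% exact interval 12.7 to 77.4) in Baf180KD and 34.5 (95% exact interval 15.7 to 94.9) in Baf250aKD, intervals that cover counting error only. In Brd9KD the ratio was 2.57 (95% exact interval 0.928 to 8.16), and Myh7 was not tested there. Slow heavy chain RNA was thus present at 5.42 and 5.74 CPM in Baf250aKD, beside 4.03 and 4.98 CPM in Baf180KD.

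The perinatal chain Myh8 had 2 counts in untreated scr, 105 in Baf180KD, 8 in Baf250aKD and 1 in Brd9KD. The ratio in Baf180KD was 41.9 (95% exact interval 11.3 to 351), and in Baf250aKD 3.16 (95% exact interval 0.631 to 30.6). The fast chain Myh4, with 2 counts in scr and 30 in Baf180KD, had a ratio of 11.98 (95% exact interval 3.04 to 103), a call that was lost without Baf180KD NT replicate 2. The fast chain Myh1 measured 1.34 and 0.789 CPM in untreated scr, 7.04 and 6.38 in Baf180KD, 2.13 and 1.79 in Baf250aKD and 1.32 and 1.89 in Brd9KD. It was higher in Baf180KD (2.70 ± 0.30, adjusted p = 3.36e-05), and the values 0.92 in Baf250aKD (adjusted p = 0.0521) and 0.63 in Brd9KD (adjusted p = 0.281) did not pass. The clustered chains share near-identical stretches and only uniquely mapped reads were counted, so reads of these stretches are missing.

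Of the light chains, the embryonic and atrial Myl4 measured 3.63 and 3.30 CPM in untreated scr, 17.3 and 15.8 in Baf180KD, 4.68 and 3.72 in Baf250aKD and 1.63 and 2.497 in Brd9KD. It was higher in Baf180KD (2.28 ± 0.18, adjusted p = 2e-06), where it exceeded all other libraries, and did not pass in Baf250aKD (0.29, adjusted p = 0.316) or Brd9KD (-0.74, adjusted p = 0.104). The fast regulatory chain Mylpf measured 12.7 and 16.4 CPM in untreated scr, 17.7 and 16.3 in Baf180KD, 8.51 and 8.24 in Baf250aKD and 6.75 and 5.40 in Brd9KD. It was lower in Baf250aKD (-0.80 ± 0.17, adjusted p = 0.00125) and in Brd9KD (-1.24 ± 0.19, adjusted p = 0.00361). In Baf180KD its value was 0.23 (adjusted p = 0.266). The fast essential chain Myl1 was lower in Brd9KD (-1.04 ± 0.21, adjusted p = 0.00903), though not without Brd9KD NT replicate 2. Its call as higher in untreated Baf180KD (0.56 ± 0.17, adjusted p = 0.0198) was lost in the fit over all 12 libraries of the 2 lines with treatment as a term (0.10, adjusted p = 0.634), in DESeq2 and without either Baf180KD NT library or scr NT replicate 2.

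The sarcomeric actins separated the lines differently. Acta1 measured 60.1 and 63.3 CPM in untreated scr, 66.9 and 56.5 in Baf180KD, 36.0 and 32.1 in Baf250aKD and 22.9 and 22.0 in Brd9KD. Baf180KD overlapped scr (0.01 ± 0.11, adjusted p = 0.933), and the gene was lower in Baf250aKD (-0.86 ± 0.11, adjusted p = 3.08e-05) and in Brd9KD (-1.44 ± 0.11, adjusted p = 0.000126). Actc1, the actin of early and cardiac muscle, also overlapped scr in Baf180KD, at -0.07 (adjusted p = 0.739), and gave 22.0 and 23.8 CPM in scr, 8.36 and 8.99 in Baf250aKD and 10.8 and 7.56 in Brd9KD, log2 fold changes of -1.40 ± 0.14, adjusted p = 3.62e-06 and -1.29 ± 0.18, adjusted p = 0.00195. Actin genes are near-identical in coding sequence, and the smooth muscle actin Acta2 stood at 2298 and 2503 CPM in scr and 6192 and 6163 in Baf250aKD. A misassigned share of Acta2 reads was not tested.

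Among the 7 troponins, 4 were higher and 1 lower in Baf180KD, 1 higher and 1 lower in Baf250aKD, and 1 higher and 3 lower in Brd9KD. These are 71.4%, 28.6% and 57.1% of the 7, where 41.0%, 57.8% and 29.2% of all genes passed. Tnnt2 measured 13.8 and 11.7 CPM in untreated scr, 48.9 and 53.4 in Baf180KD, 29.6 and 27.1 in Baf250aKD and 17.7 and 21.9 in Brd9KD. All knockdown values were above both scr values, with log2 fold changes of 2.02 ± 0.14, adjusted p = 5.87e-07 in Baf180KD, 1.16 ± 0.14, adjusted p = 1.47e-05 in Baf250aKD and 0.65 ± 0.17, adjusted p = 0.0257 in Brd9KD. The last of these was lost without Brd9KD NT replicate 2 or scr NT replicate 2. The slow troponin I Tnni1, nearby on chromosome 1, measured 3.06 and 3.11 CPM in untreated scr, 12.9 and 10.5 in Baf180KD, 4.64 and 3.72 in Baf250aKD and 2.11 and 1.55 in Brd9KD and was higher in Baf180KD (1.93 ± 0.20, adjusted p = 2.06e-05) but did not pass in Baf250aKD (0.44, adjusted p = 0.131) or Brd9KD (-0.72, adjusted p = 0.0916).

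Troponin C, the calcium sensor, rose in Baf180KD as the slow form Tnnc1 (0.89 ± 0.15, adjusted p = 0.000635) and the fast form Tnnc2 (1.36 ± 0.41, adjusted p = 0.0202), the latter at 2.02 and 2.51 CPM and lost in DESeq2, without either Baf180KD NT library and without scr NT replicate 1. The fast troponin T Tnnt3 measured 13.8 and 13.1 CPM in untreated scr, 13.0 and 12.8 in Baf180KD, 10.9 and 11.0 in Baf250aKD and 4.85 and 4.93 in Brd9KD. It was lower in Brd9KD (-1.44 ± 0.17, adjusted p = 0.001) and gave -0.05 (adjusted p = 0.823) in Baf180KD and -0.29 (adjusted p = 0.107) in Baf250aKD. Tnnt3 and Tnni2 lie close to each other on chromosome 7 and were both lower in Brd9KD. The slow troponin T Tnnt1 was lower in Brd9KD (-0.58 ± 0.18, adjusted p = 0.0383), a call lost without either Brd9KD NT library or scr NT replicate 1, in DESeq2 and with an offset for GC content and gene length (GC offset).

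The tropomyosins, the most abundant thin filament genes here, changed by less than 1 on the log2 scale. Tpm1 was higher in Baf250aKD (0.46 ± 0.09, adjusted p = 0.00119), at 1115 and 1080.4 CPM against 811 and 786 in scr, and lower in Brd9KD (-0.31 ± 0.09, adjusted p = 0.0301), a call lost with the GC offset and without either Brd9KD NT library. Tpm2 was lower in Baf180KD (-0.43 ± 0.11, adjusted p = 0.00751) and Brd9KD (-0.54 ± 0.09, adjusted p = 0.00561), each call lost without NT replicate 2 of that knockdown line. Tpm3 was lower in untreated Baf250aKD (-0.64 ± 0.10, adjusted p = 0.000183), which the fit over 12 libraries with treatment as a term did not call (-0.22, adjusted p = 0.219).

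The giant scaffolds, both on chromosome 2, changed in opposite directions in 2 lines. Neb, the ruler of the thin filament, measured 4.08 and 3.44 CPM in untreated scr, 17.9 and 24.9 in Baf180KD, 10.9 and 15.9 in Baf250aKD and 3.74 and 6.21 in Brd9KD. It was higher in Baf180KD (2.54 ± 0.22, adjusted p = 3.71e-06) and in Baf250aKD (1.83 ± 0.22, adjusted p = 1.54e-05), and gave 0.42 (adjusted p = 0.313) in Brd9KD. Ttn remained the more abundant per length in every line, with 5.73 against 0.583 FPKM in Baf180KD and 5.08 against 0.322 FPKM in Baf250aKD.

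**Figure D4:**
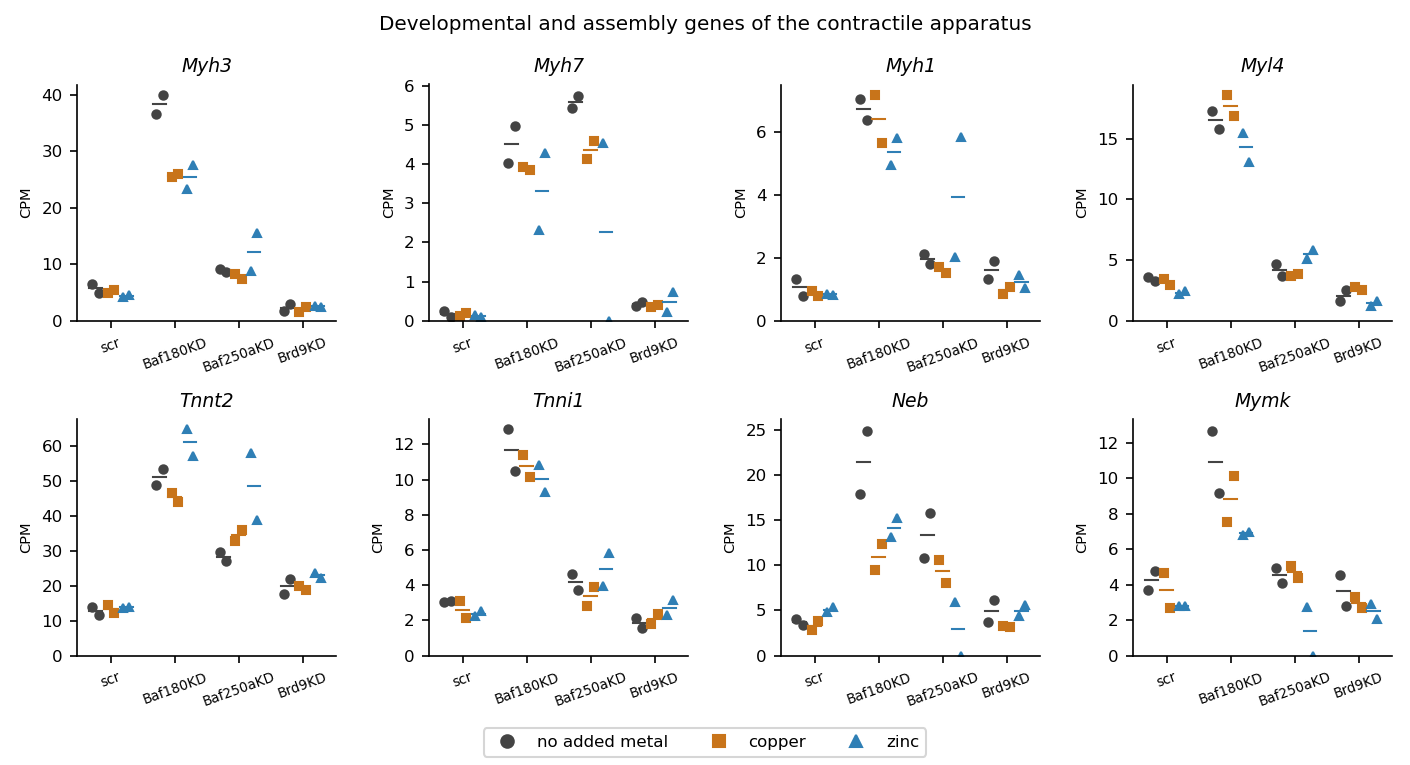
TMM-scaled CPM of Myh3, Myh7, Myh1, Myl4, Tnnt2, Tnni1, Neb and Mymk by line, with treatment in colour and shape, points for single libraries and short lines for means of 2 libraries. The 6 Baf180KD points lie above the 6 scr points in all 8 panels. All 8 genes were among those called higher in untreated Baf180KD, so this pattern follows in part from their choice. In the Baf250aKD Zn column, points at 0 for Myh7, Neb and Mymk belong to the shallow replicate 2.

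At the M-band and thick filament, Mybph, a myosin binding protein, measured 4.72 and 4.37 CPM in untreated scr, 15.9 and 13.9 in Baf180KD, 3.83 and 3.34 in Baf250aKD and 3.01 and 1.96 in Brd9KD. It was higher in Baf180KD (1.73 ± 0.18, adjusted p = 1.66e-05), and its call as lower in Brd9KD (-0.84 ± 0.27, adjusted p = 0.0497) was lost in DESeq2, with RLE size factors, with the GC offset and without any of its 4 libraries. Myom1 was higher in Baf250aKD (0.88 ± 0.22, adjusted p = 0.00404), in which Myom2 was lower. Muscle creatine kinase Ckm was at 2.04 and 2.88 CPM in scr, lower in Baf250aKD (-0.99 ± 0.33, adjusted p = 0.0217) and in Brd9KD (-1.63 ± 0.42, adjusted p = 0.0225), and Myom3 was lower in Brd9KD (-1.41 ± 0.43, adjusted p = 0.0415). The Ckm call in Baf250aKD was lost in DESeq2 and without either Baf250aKD NT library or scr NT replicate 2, that in Brd9KD without Brd9KD NT replicate 2 or scr NT replicate 2, and the Myom3 call in DESeq2, with the GC offset and without any of its 4 libraries. Ckm and Myom3 were under 3 CPM in untreated scr.

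Other Z-disc genes were mostly low. Ldb3, which binds alpha-actinin, measured 22.7 and 21.9 CPM in untreated scr, 27.3 and 26.2 in Baf180KD, 35.7 and 45.7 in Baf250aKD and 20.5 and 18.4 in Brd9KD and was higher in Baf250aKD (0.87 ± 0.14, adjusted p = 0.000154). The cardiac and slow alpha-actinin Actn2 had 4 counts in untreated scr and 54 in Baf180KD, a ratio of 10.8 (95% exact interval 3.98 to 41.0). Actn2 entered the test through the Baf180KD libraries alone and could enter only by being higher. Actn3, its fast counterpart, was lower in that line. Myoz1 was lower in Baf250aKD (-1.65 ± 0.50, adjusted p = 0.013) from 0.829 and 0.929 CPM in scr, a call lost in DESeq2 and without either Baf250aKD NT library or scr NT replicate 2. Myoz2 did not pass in Baf180KD, the line in which it was tested.

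In the calcium machinery, the L-type channel subunit Cacna1s, the voltage sensor that gates Ryr1, measured 0.574 and 0.557 CPM in untreated scr, 2.55 and 2.31 in Baf180KD, 1.16 and 2.21 in Baf250aKD and 0.686 and 0.472 in Brd9KD and was higher in Baf180KD (2.11 ± 0.39, adjusted p = 0.00127) and in Baf250aKD (1.55 ± 0.46, adjusted p = 0.0111), the latter lost without Baf250aKD NT replicate 2. Atp2a1, the fast calcium pump that returns calcium to the reticulum, measured 7.52 and 8.73 CPM in untreated scr, 15.2 and 16.9 in Baf180KD, 14.5 and 14.97 in Baf250aKD and 5.01 and 6.48 in Brd9KD. It was higher in Baf180KD (1.00 ± 0.17, adjusted p = 0.000674) and Baf250aKD (0.85 ± 0.16, adjusted p = 0.000519), with -0.49 in Brd9KD (adjusted p = 0.113). The calcium buffer Casq2 was lower in Baf250aKD (-1.92 ± 0.34, adjusted p = 0.000392) and Brd9KD (-1.43 ± 0.31, adjusted p = 0.0128), the latter lost without either Brd9KD NT library. Casq1, under 1 CPM throughout, was called lower in Baf180KD (-1.86) and Baf250aKD (-1.73), and both calls were lost in DESeq2 and without any of their 4 libraries.

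The fusion genes were low in all lines. Mymk measured 3.70 and 4.78 CPM in untreated scr, 12.7 and 9.18 in Baf180KD, 4.95 and 4.10 in Baf250aKD and 4.54 and 2.77 in Brd9KD. Mymk was higher in Baf180KD (1.36 ± 0.22, adjusted p = 0.000534), where both untreated values exceeded all scr values, and gave 0.09 in Baf250aKD (adjusted p = 0.768) and -0.19 in Brd9KD (adjusted p = 0.640). Mymx, its partner in membrane fusion, measured 0.446 and 0.186 CPM in untreated scr, 1.25 and 1.15 in Baf180KD, 0.929 and 0.424 in Baf250aKD and 0.105 and 0.270 in Brd9KD. It was tested in Baf180KD alone, through the knockdown libraries and so only by being higher, and was called (2.00 ± 0.52, adjusted p = 0.01), a call lost in DESeq2 and on leaving out either Baf180KD NT library or scr NT replicate 2. Averaged per length over 6 libraries, Mymk stood at 2.36 FPKM in scr and 5.88 FPKM in Baf180KD.

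Levels were also set side by side over all 3 treatments. With no test, and of the 42 measured genes, all 6 Baf180KD libraries lay above all 6 scr libraries for 18 genes and below for 7, where 23.4% of 16524 genes did not overlap, 14.6% above and 8.85% below. The counts were 8 above and 12 below for Baf250aKD, where 27.4% of all genes did not overlap, 14.0% above and 13.5% below, and 1 above and 20 below for Brd9KD, where 15.7% did not overlap, 9.33% above and 6.36% below. For Myoz1, Myoz2 and Casq2, which are among the 12 below for Baf250aKD, the shallow Baf250aKD Zn replicate 2 had no count, and its floor of 5.83 CPM is above every scr value, so that their place rests on the other 5 libraries. The genes above scr in Baf180KD include Myh4, Myh7, Myh8, Actn2 and Cav3, which had under 10 counts in every scr library. Des, Ttn, Myom2, Synpo2l and Actn3 lay below scr in all 18 knockdown libraries, and Tnnt2 lay above it. The share of all genes outside the scr range in all 18 was not counted. Ryr1 and Tnni2, lower in all 3 untreated comparisons, were outside the scr range for Baf250aKD and Brd9KD (Ryr1) and for Brd9KD (Tnni2). Other genes called in untreated cells that overlapped scr over the 3 treatments were Myl1 and Tpm2 in Baf180KD, Myh7, Tpm3, Neb, Ckm, Casq1 and Atp2a1 in Baf250aKD, and Tnnt1, Tpm1 and Mybph in Brd9KD. For Myh7, Neb, Ckm and Atp2a1 the overlap came from the shallow Baf250aKD Zn replicate 2 alone, with 0, 0, 1 and 3 counts. The other 5 Baf250aKD libraries lay outside the scr range, below it for Ckm and above it for the rest.

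The other sarcomere and costamere genes, which are no members, were mostly lower where they passed. Their list, like those that follow, was chosen with earlier results of these data known. Beside this list and those that follow, 41.0%, 57.8% and 29.2% of all genes passed in Baf180KD, Baf250aKD and Brd9KD. In Baf180KD 13 of 20 tested passed, 4 higher and 9 lower, in Baf250aKD 13 of 19, 2 higher and 11 lower, and in Brd9KD 12 of 17, all lower. The Xin actin-binding repeat genes were lower in all 3 lines. Xirp2 went from 61.5 and 41.2 CPM in untreated scr to 0.134 and 0.206 in Baf180KD, 0.464 and 0.753 in Baf250aKD and 19.0 and 25.4 in Brd9KD, log2 fold changes of -8.16 in Baf180KD, -6.41 in Baf250aKD and -1.19 in Brd9KD. Xirp1 gave -3.02 in Baf180KD, -3.52 in Baf250aKD and -2.00 in Brd9KD. Pdlim3, which binds alpha-actinin at the Z-disc, gave -2.95 in Baf180KD, -3.39 in Baf250aKD and -1.64 in Brd9KD from 916 and 956 CPM in scr, and the myosin methyltransferase Smyd1 gave -2.57 in Baf180KD, -3.41 in Baf250aKD and -1.56 in Brd9KD.

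Further excitation-contraction and synaptic genes passed in 12 of 17 cases in Baf180KD (5 higher, 7 lower), 10 of 17 in Baf250aKD (3 higher, 7 lower), near the share of all genes there, and 11 of 17 in Brd9KD (2 higher, 9 lower). Jsrp1, which joins the reticulum to the voltage sensor, gave -2.16 in Baf180KD, -2.00 in Baf250aKD and -1.34 in Brd9KD, and Chrna1, the acetylcholine receptor alpha subunit, -1.23 in Baf180KD, -1.38 in Baf250aKD and -0.67 in Brd9KD. The junctophilin Jph2 was higher, with 1.03 in Baf180KD, 1.59 in Baf250aKD and 0.36 in Brd9KD. Of the fusion and adhesion genes outside the set, 10 of 17 passed in Baf180KD (4 higher, 6 lower), 12 of 17 in Baf250aKD (6 and 6) and 9 of 17 in Brd9KD (3 and 6). Among them Vcam1, a receptor in myoblast adhesion, rose by 2.91 in Baf180KD, 3.03 in Baf250aKD and 1.58 in Brd9KD, and the integrin Itga7 fell, with -1.22 in Baf180KD, -2.14 in Baf250aKD and -0.94 in Brd9KD.

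The myogenic factors that act on these genes differed between the lines. Myog, which drives terminal differentiation, measured 7.07 and 5.99 CPM in untreated scr, 35.6 and 30.3 in Baf180KD, 10.9 and 8.29 in Baf250aKD and 3.48 and 2.09 in Brd9KD. Myog was higher in Baf180KD (2.36 ± 0.16, adjusted p = 4.87e-07) and Baf250aKD (0.57 ± 0.19, adjusted p = 0.0236) and lower in Brd9KD (-1.19 ± 0.27, adjusted p = 0.0153). Of the members, only Myh3 was called with the same 3 signs, and its calls in Baf250aKD and Brd9KD were lost without single libraries. Acta1, Actc1 and Mylpf were lower in Baf250aKD, where Myog was higher. A link to Myog was not tested. Myod1 gave 0.11 in Baf180KD, 0.35 in Baf250aKD and -0.30 in Brd9KD, of which the value in Baf180KD did not pass (adjusted p = 0.453). Myf5 was lower in Baf180KD (-1.27) and Baf250aKD (-1.77) and did not pass in Brd9KD (-0.40, adjusted p = 0.0534). Mef2c, one of the MEF2 factors, was at 0.956 and 0.372 CPM in scr and 3.05 and 3.05 in Baf180KD (2.27 ± 0.43, adjusted p = 0.00146). Pax7, the satellite cell factor, gave 0.92 in Baf180KD, -1.21 in Baf250aKD and 1.41 in Brd9KD, each called. Of the list of 18 factors, 10 of 16 tested passed in Baf180KD, 13 of 15 in Baf250aKD and 7 of 15 in Brd9KD. The repressor Id2, which sequesters E-proteins, was higher, with 1.48 in Baf180KD, 2.71 in Baf250aKD and 0.90 in Brd9KD.

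Markers of other cells moved with some of these changes, and their part was not tested. The fibroblast list of 6 genes summed to 818 to 1121 CPM in scr, 1627 to 2053 in Baf180KD, 4206 to 6085 in Baf250aKD and 946 to 1275 in Brd9KD. In untreated cells 4 of 4 tested were higher in Baf180KD, 5 of 5 in Baf250aKD and 2 of 4 in Brd9KD. Col1a1, a collagen of fibroblasts, gave 3.08 in Baf180KD, 5.67 in Baf250aKD and 0.58 in Brd9KD, while Thy1 and Lum stayed under 1 CPM in untreated cells of every line. The smooth muscle list of 5 genes summed to 1942 to 2944 CPM in scr and 6181 to 7263 CPM in Baf250aKD, with 4 of 5 higher there and 1 lower, and to 2005 to 3227 CPM in Baf180KD and 1645 to 2692 CPM in Brd9KD. In the wider list of 20 smooth and non-muscle contractile genes, 9 of 19 tested passed in Baf180KD (5 higher, 4 lower), 14 of 20 in Baf250aKD (10 and 4) and 6 of 19 in Brd9KD (3 and 3), and Actb gave 0.02 in Baf180KD, -0.18 in Baf250aKD and -0.03 in Brd9KD, none called.

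The 5 proliferation markers summed to 939 to 1543 CPM in scr, 946 to 1158 in Baf180KD, 744 to 909 in Baf250aKD and 1153 to 1447 in Brd9KD, and 4 of 5 were lower in untreated Baf250aKD, 3 of 5 higher in Brd9KD, and 1 higher and 1 lower in Baf180KD. The 8 myoblast markers, which include Des, summed to 3454 to 5041 CPM in scr and to 1709 to 2923 CPM in the knockdown lines. Of these 8, 2 were higher and 5 lower in Baf180KD, 2 and 6 in Baf250aKD, and 2 and 5 in Brd9KD. Heart (up to 3.89 CPM), leukocyte (up to 6.22 CPM) and endothelial markers (up to 6.18 CPM) were low in sum in every library, as were adipocyte markers (up to 24.7 CPM). Osteoblast markers summed to 102 to 164 CPM, nearly all from Runx2. The cardiac heavy chain Myh6 and natriuretic peptide Nppa were below 1 CPM in untreated cells of every line, also where Myh7, Tnnt2 and Actc1 were measured.

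With copper, 7 genes were lower in Baf180KD and 1 in Baf250aKD. In Baf180KD 7 of 41 tested genes were lower and none higher, where 13.8% of all genes passed, 8.30% lower. They were Tnnt3 (-0.90 ± 0.15, adjusted p = 0.0103), Neb (-1.01 ± 0.19, adjusted p = 0.0127), Myl1 (-0.70 ± 0.15, adjusted p = 0.0194), Atp2a1 (-0.62 ± 0.13, adjusted p = 0.0165), Myh3 (-0.61), Ryr1 (-0.51) and Actn3 (-0.32). In the 2 untreated and 2 copper libraries of Baf180KD, Tnnt3 measured 13.0 and 12.8 and then 7.99 and 6.21 CPM, Neb 17.9 and 24.9 and 9.45 and 12.4, Myl1 13.3 and 12.7 and 7.60 and 8.77, and Atp2a1 15.2 and 16.9 and 10.8 and 10.5 CPM. The groups did not overlap, which adds no support, as these genes were picked by this same comparison. Without Baf180KD NT replicate 2 no gene passed, without Baf180KD Cu replicate 1 a single gene passed, and with the GC offset 13 did.

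In the other lines copper gave few calls. In scr 0 of 36 genes passed in edgeR (9 at an unadjusted p under 0.05, 0 in DESeq2), where 0.0333% of all genes did. In Baf250aKD Actn3 alone was lower (-0.45 ± 0.11, adjusted p = 0.0346), at 46.9 and 41.9 CPM without and 34.6 and 30.2 with copper, 1 of 35 where 1.27% of all genes passed, 0.646% lower, and DESeq2, the GC offset and the fits without Cu replicate 2 or without NT replicate 2 called none. In Brd9KD 0 of 34 passed in edgeR (12 at an unadjusted p under 0.05, 2 in DESeq2), where 0.274% of all genes did.

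Side by side, the copper values pointed down in all 4 lines for several genes. Those of Atp2a1 were -0.55 in scr, -0.62 in Baf180KD, -0.55 in Baf250aKD and -0.63 in Brd9KD, and those of Tnnt3 -0.40, -0.90, -0.45 and -0.35. The median over the tested members was -0.24, -0.26, -0.29 and -0.28 in the same order, with medians over all genes between -0.01 and 0.01. No member passed edgeR's interaction test after the count filter for a copper response that differed from that of scr, in Baf180KD (3 of 42 at an unadjusted p under 0.05), Baf250aKD (2) or Brd9KD (2), where 12.8%, 0.0121% and 0.0363% of all genes passed. DESeq2 also called 0 in each, and testing every gene with a count gave 2, 1 and 1.

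With zinc, 6 of 36 genes were lower in scr, where 17.6% of all genes passed, 7.13% lower. The members that passed were lower without exception. Actn3 went from 365 and 399 to 253 and 236 CPM (-0.56 ± 0.08, adjusted p = 0.0275), Tnnc1 from 10.3 and 11.1 to 6.48 and 6.68 (-0.61 ± 0.14, adjusted p = 0.0318), Mylpf from 12.7 and 16.4 to 10.001 and 9.05 (-0.53 ± 0.15, adjusted p = 0.0456) and Myom2 from 54.2 and 59.0 to 39.0 and 37.4 CPM (-0.48 ± 0.10, adjusted p = 0.028). Tpm2 (-0.40) and Des (-0.41) were the others. Untreated and zinc libraries did not overlap for these 6 genes, which adds no support, as they were picked by this same comparison. With the GC offset none of the 6 passed, and leaving out scr NT replicate 2 or either zinc library also left 0.

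In Baf250aKD 6 of 35 genes changed with zinc, where 15.9% of all genes passed, 8.85% higher and 7.02% lower. Higher were Tnnt2 (0.97 ± 0.13, adjusted p = 2e-05), Tnni2 (1.35 ± 0.39, adjusted p = 0.0205) and Tpm3 (0.70 ± 0.13, adjusted p = 0.000481), and lower were Neb (-1.23 ± 0.26, adjusted p = 0.00215), Ttn (-0.84 ± 0.20, adjusted p = 0.00455) and Ldb3 (-0.68 ± 0.15, adjusted p = 0.00292). Of the 2 zinc libraries replicate 2 is the shallow one. Tnni2 measured 1.55 and 1.41 CPM without metal and 4.11 in Zn replicate 1, and had no count in replicate 2, which allows up to 5.83 CPM. Neb measured 10.9 and 15.9 and then 5.99 CPM, again with no count in replicate 2. Tnnt2 measured 29.6 and 27.1 and then 58.1 and 38.9 CPM, above both untreated values in both replicates, and Tpm3 195 and 172 and then 335 and 198 CPM. Without Zn replicate 1 no gene passed, without NT replicate 2 only 3 did, and without the shallow replicate 10 did. DESeq2 called Tnnt2 and Tpm3, and not Neb, Ldb3 or Ttn. With the GC offset Tpm3 lost its call (adjusted p = 0.0592), and so did Ttn, at -0.33 (adjusted p = 0.366), which was also lost in the fit of all 24 libraries.

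In the other 2 lines no member passed for zinc in edgeR after the count filter, which in Baf180KD depended on that filter and on the tool. In Baf180KD 0 of 41 genes passed (11 at an unadjusted p under 0.05, 3 in DESeq2, 7 when every gene with a count was tested), where 0.0197% of all genes did, and in Brd9KD 0 of 34 (3 at an unadjusted p under 0.05, 0 in DESeq2), where 0.0334% did. The zinc value of Des was -0.41 in scr, 0.05 in Baf180KD, 0.25 in Baf250aKD and -0.08 in Brd9KD.

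The zinc response itself was compared between lines in a fit of all 24 libraries. In Baf180KD it differed from that of scr for 7 of 42 genes, 5 with a higher and 2 with a lower value, where 28.7% of all genes passed, 16.1% higher and 12.6% lower. With the GC offset 3 passed, 0 higher and 3 lower, and with DESeq2's median-ratio (RLE) factors 5 passed, 2 higher and 3 lower. In Baf250aKD it differed for 11 genes, 9 higher and 2 lower, against 30.5% of all genes, 17.3% higher and 13.2% lower (6 with the GC offset, 3 higher and 3 lower), and in Brd9KD for 2 genes, Actn3 and Myom2, both higher, against 11.1%, 5.86% higher. In Baf180KD a single gene passed without scr NT replicate 2 or without scr Zn replicate 2, 2 without Baf180KD Zn replicate 1, and 3 without Baf180KD NT replicate 2 or scr Zn replicate 1. In Baf250aKD a single gene passed without Zn replicate 1, and in Brd9KD none did without Brd9KD NT replicate 2, Brd9KD Zn replicate 1, scr NT replicate 2 or either scr Zn library. Actn3 was called in all 3 tests, with values of 0.59 ± 0.16, 0.82 ± 0.17 and 0.51 ± 0.15 (adjusted p = 0.00853, 0.00153 and 0.0427), as was Myom2. With zinc, Actn3 measured 253 and 236 CPM in scr, 109 and 105 in Baf180KD, 52.6 and 36.9 in Baf250aKD and 167 and 145 in Brd9KD. All 3 tests share the 4 scr libraries, and with the GC offset Actn3 and Myom2 passed in none of them.

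**Figure D5:**
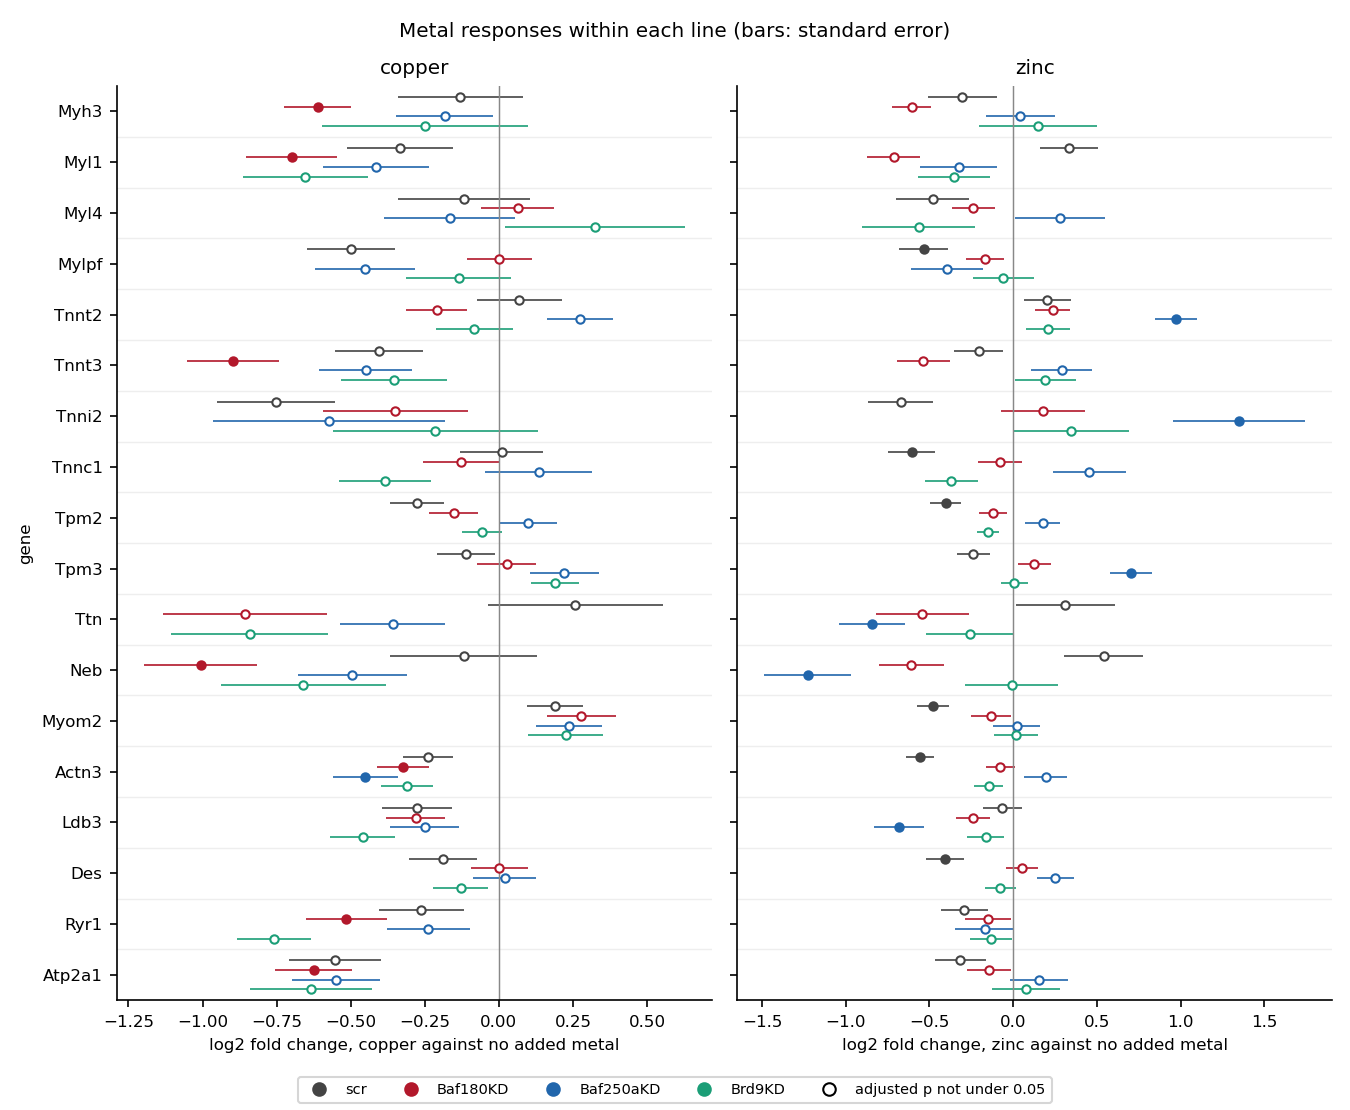
Log2 fold change of copper (left) and zinc (right) against no added metal within each line, for the 18 genes called in any metal response or in a difference of zinc responses, with the standard error of the edgeR fit as a bar. Colour gives the line, filled points passed an adjusted p under 0.05. Copper calls are 7 points of Baf180KD and 1 of Baf250aKD, all negative, and zinc calls are 6 negative points of scr and 6 points of Baf250aKD on both sides of 0.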

How the data were processed

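Strand-specific RNA-seq libraries were made from rRNA-depleted total RNA of 12 conditions with 2 biological replicates each. The authors aligned read pairs to mm10 with STAR, kept uniquely mapped pairs and counted them per gene by strand with featureCounts, and the deposited values are raw counts for 55291 gene symbols. GEO titles gave each sample's group, because the treatment tags contradict the titles of some samples. The members and gene lists were chosen with earlier results of these data known.

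Counts were filtered with filterByExpr (minimum count 10, minimum total 15), scaled by TMM and tested with edgeR 4.0.16 (quasi-likelihood, R 4.3.3, limma 3.58.1), with Benjamini-Hochberg adjustment over all tested genes and a threshold of 0.05, two-sided. Untreated lines were compared over 4 libraries, metals within a line over its 6, and differences of responses over 24. Exact 95% intervals of count ratios cover counting error only. FPKM used exon lengths of GENCODE M21 (GRCm38), and promoter windows came from RefSeq (GRCm38.p6). Replicates are separate samples by the study's account.

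Values in every library are given for the called members of largest fold change in each untreated comparison (up to 6) and metal comparison (up to 4), for Mymk, Mymx, Des and Synpo2l, and briefly for other members. Context genes were taken from lists of myogenic factors, other sarcomere genes, excitation-contraction, fusion and adhesion, smooth muscle and cell type markers, some of them chosen after their values were seen. Alternatives were DESeq2 1.42.0, RLE factors, other filters, an offset for GC content and length, the replicate number as a block, wider and narrower fits, and leaving out each library. The scripts were tested on simulated counts.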

Additional observations from a re-analysis of the deposited data

Results flagged for a closer look

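The zinc response differed from that of scr, by edgeR's interaction test in a fit of all 24 libraries (adjusted p under 0.05), in 20 cases that involve 12 genes, given as the difference of log2 fold changes, knockdown line minus scr. In Baf180KD the differences were 0.96 for Tnni2, 0.59 for Actn3, 0.57 for Des, 0.45 for Myom2, 0.39 for Tpm2, -0.95 for Myl1 and -1.05 for Neb. In Baf250aKD they were 2.10 for Tnni2, 1.13 for Tnnc1, 0.97 for Tpm3, 0.85 for Myl4, 0.83 for Tnnt2, 0.82 for Actn3, 0.72 for Des, 0.64 for Tpm2, 0.59 for Myom2, -0.51 for Ldb3 and -1.71 for Neb. In Brd9KD they were 0.51 for Actn3 and 0.60 for Myom2. All share the scr libraries, and those of Baf250aKD rest on 1 deep and 1 shallow zinc library. The cases were 7, 11 and 2 of the 42 genes tested in Baf180KD, Baf250aKD and Brd9KD. Of all genes, 28.7%, 30.5% and 11.1% passed, a larger share in each line.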

How the results depend on the processing

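Of 1379 recalculations of called gene values, 1109 kept direction and call, 265 lost the call and 5 changed sign. Without Baf250aKD Zn replicate 1, which leaves the shallow library alone, Tnni2 turned to -7.68 for zinc in Baf250aKD and to -7.40 for the difference from scr, where Tnnc1 turned to -1.39. Tpm2 in the zinc difference of Baf180KD turned to -0.043 with the GC offset and -0.044 with replicate block and GC offset together. The cause was not tested. Over all libraries left out in turn, the difference for zinc in Baf250aKD ran from -7.40 to 2.23 for Tnni2 and from -1.39 to 1.38 for Tnnc1.

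Counts of called genes that moved by over 1.5 times were the following. For zinc in scr the GC offset gave 0 and the fit of all 24 libraries 10. For copper in Baf180KD the GC offset gave 13. For zinc in Baf180KD DESeq2 gave 3 and testing every gene with a count 7. For copper in Baf250aKD DESeq2, the GC offset and the 24-library fit gave 0 and every gene 3, and for zinc there DESeq2 gave 2. For copper in Brd9KD DESeq2 and the 24-library fit gave 2, the GC offset 3 and every gene 5. Testing every gene gave 1 for copper in scr, and 2, 1 and 1 for the copper differences of Baf180KD, Baf250aKD and Brd9KD. For the zinc differences, Baf180KD gave 4 with DESeq2 and 3 with the GC offset, Baf250aKD 6 with the GC offset, and Brd9KD 0 with the GC offset and 0 with 12 libraries.

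Replicate numbers were not used as pairs, as the labels name no shared batch and correlations of deviations were mixed, from -0.35 to 0.59. For zinc against no metal the correlation was -0.21 in scr, 0.41 in Baf180KD, 0.08 in Baf250aKD and 0.40 in Brd9KD. With the replicate block, untreated counts were 27, 24 and 20 in Baf180KD, Baf250aKD and Brd9KD, where the Tpm1 call was lost. Zinc in scr gave 0, copper in Baf180KD 11, zinc in Baf180KD 6, copper in Baf250aKD 2, copper in Brd9KD 1 and the copper difference of Baf180KD 1. Block and GC offset together gave 0, 16, 4, 2, 5 and 1 for these, 3 for zinc in Baf250aKD, and 3 and 0 for the zinc differences of Baf180KD and Brd9KD.

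Leaving out each library gave 20 to 26 called genes for untreated Baf180KD, 19 to 27 for Baf250aKD and 12 to 19 for Brd9KD. For zinc it gave 0 to 4 in scr, 0 to 0 in Baf180KD, 0 to 10 in Baf250aKD and 0 to 0 in Brd9KD, and for copper 0 to 0 in scr, 0 to 6 in Baf180KD, 0 to 2 in Baf250aKD and 0 to 0 in Brd9KD. Differences gave 1 to 8, 1 to 16 and 0 to 3 for zinc, and 0 to 1, 0 to 0 and 0 to 0 for copper, in Baf180KD, Baf250aKD and Brd9KD. A lone library was assumed to vary like the other group. Depth limits the 10 genes under 1 CPM and the shallow library, without which 43 genes passed the filter.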
